A study of Mus musculus with 6 samples.

Results

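The genes described here encode proteins with which myoblasts recognise, hold and fuse with each other: Mymk, Mymx, Cdh15, Cdon, Boc, Adgrb1, Adgrb3, Jam2, Jam3 and Itga7. They are 10 of the 21887 protein-coding genes on the 21 chromosomes of the gene table, taken by name. Every peak of LncMyoD chromatin capture that overlapped a gene's span, or the 20 kb on either side, was counted as lying at that gene. All 10 were found, and together their windows covered 1566 kb. Replicate 1 had 105 peaks in these windows and replicate 2 had 117.

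The data came from ChIRP-seq, in which biotin-labelled DNA probes pull down an RNA together with the chromatin attached to it. The RNA was LncMyoD, a long non-coding RNA transcribed near Myod1, and the cells were primary C57BL/6 mouse myoblasts that had been kept for 2 days in medium with 2% horse serum to become myotubes. The 6 samples were captures with odd probes, captures with even probes and input DNA, with 2 replicates each, all of the same strain, cells and culture. The peak calls analysed were 1 list per replicate, of 157214 and 179630 peaks, and the labels tie each list to all 3 libraries of its replicate. Odd, even and input signal could therefore not be set apart, and nothing in the labels says whether the replicates were separate cultures. Captured DNA carries no expression values, so the labelled cell type was not checked against marker genes.

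Skeletal muscle fibres form when mononucleated myoblasts stop dividing, adhere and merge into one cell. Cadherins, immunoglobulin-type receptors, junctional adhesion molecules and integrins bring the membranes together and signal to the actin cytoskeleton. The muscle-specific membrane proteins myomaker and myomixer then carry out the merger itself. Several of these genes are targets of MyoD and myogenin, which bind E-box letters in DNA.

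A shared region is the union of overlapping peaks that holds at least 1 peak of each list. Fold enrichment, the authors' ratio at the summit of a peak to the background estimated by the peak caller, is given as replicate 1 and then replicate 2, from the best peak of each list. A percentile is the position of a peak among all peaks of its list by −log10 q, higher for stronger peaks and averaged over ties, and the mean percentile averages both lists. The 97115 shared regions on the chromosomes were placed in order of mean percentile, with place 1 for the strongest. With 2 lists of the same condition no test between conditions exists, so counts stand beside the share of all protein-coding genes that meet the same rule.

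All 10 genes had at least 1 shared region in their window, a rule that 89.6% of protein-coding genes also met. The windows held 64 shared regions, 35 overlapping the gene itself and 29 in the flanks. Of those 29, 16 overlapped another protein-coding gene and 9 overlapped no gene. The gene itself was overlapped at 9 of the 10, against 56.4% of protein-coding genes. The number per gene ran from 3 at Cdon to 13 at Adgrb1. Of the 64, 17 (26.6%) had a mean percentile of at least 90, against 13.9% of all shared regions. Such a strong region lay in the window of 9 of the 10 genes, all but Itga7, against 36.0% of protein-coding genes. It overlapped the gene itself at 8 of the 10, against 18.9%. These genes were longer than most, with a median span of 55.1 kb against 17.2 kb, and a longer window has more room for a region.

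**Figure D1:**
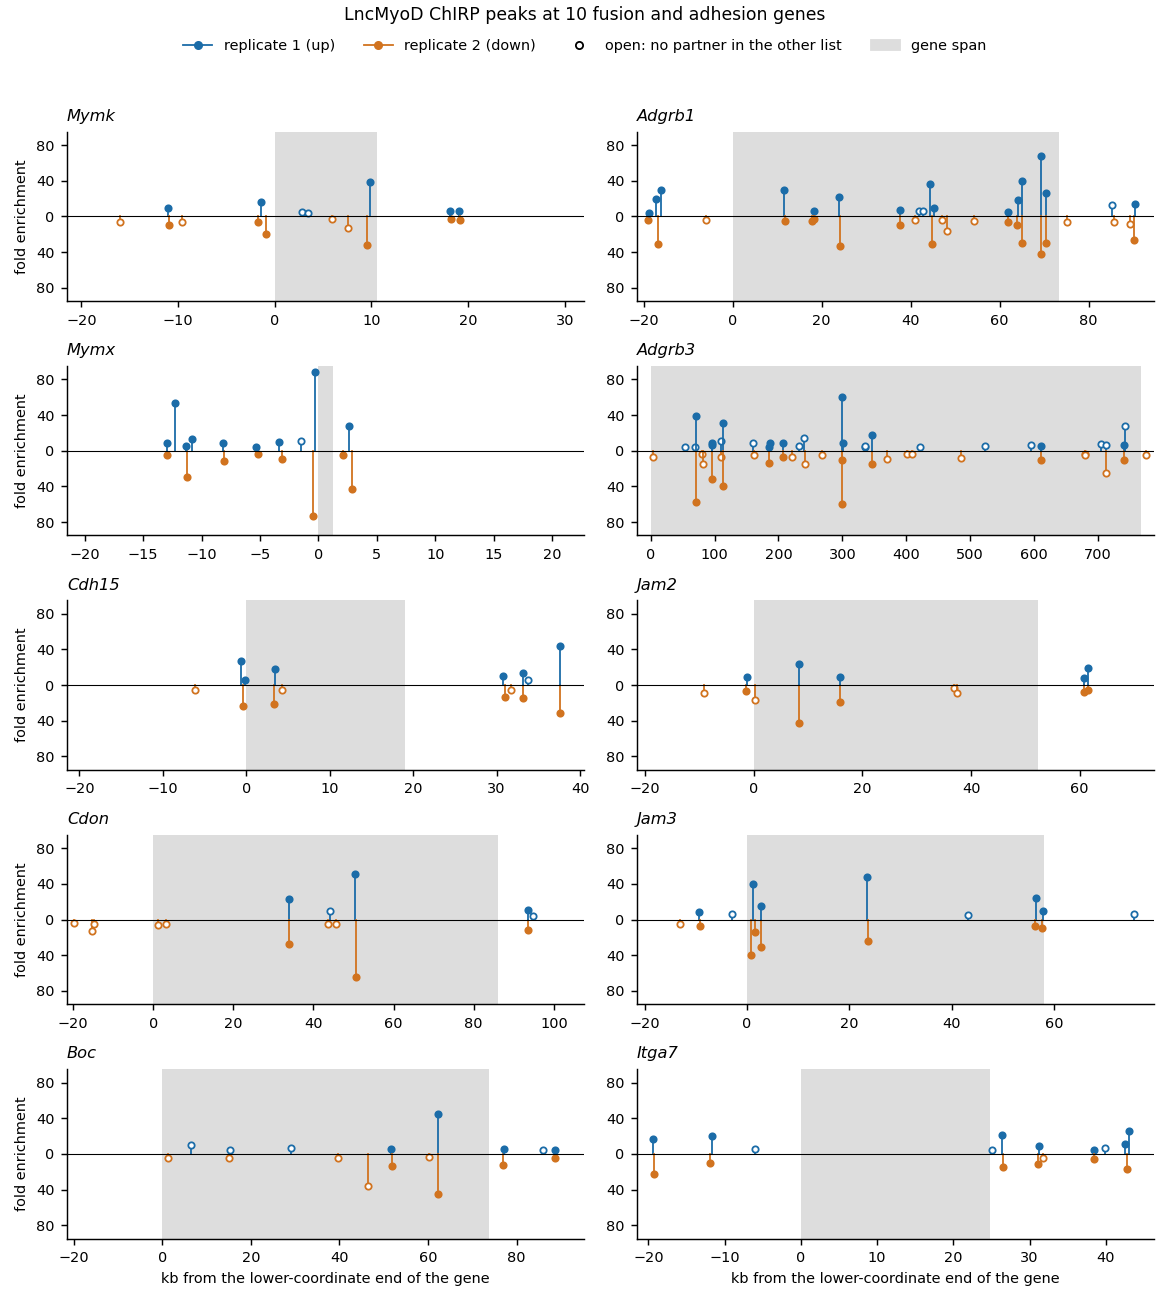
Peaks within 20 kb of each gene. The x axis is the distance in kb from the lower-coordinate end of the gene, grey marks the gene span, and the y axis is fold enrichment, upward for replicate 1 (blue) and downward for replicate 2 (orange). Filled points have a partner in the other list. Mymx has its highest peaks at the gene, and Itga7 has none inside its span.

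Per 100 kb of window, the median over the 10 genes was 7.30 shared regions, against 4.27 over all protein-coding genes. Mymx had the highest density, 17.0 per 100 kb, which exceeded that of 99.5% of protein-coding genes. Adgrb1 (11.5), Mymk (9.90), Itga7 (9.25) and Cdh15 (8.47) followed, then Jam3 (6.12) and Jam2 (5.42). Boc (3.51), Cdon (2.38) and Adgrb3 (1.24) lay under the median of all genes. The order depended in part on the list. Counted as peaks of replicate 1, Mymx was first with 24.3 per 100 kb and Mymk came after it, Adgrb1 and Itga7 with 13.9, whereas in replicate 2 Mymk was first with 19.8 and Mymx came after it and Adgrb1, with 19.4. Adgrb1 was in second place and Adgrb3 in last place in both lists.

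**Figure D2:**
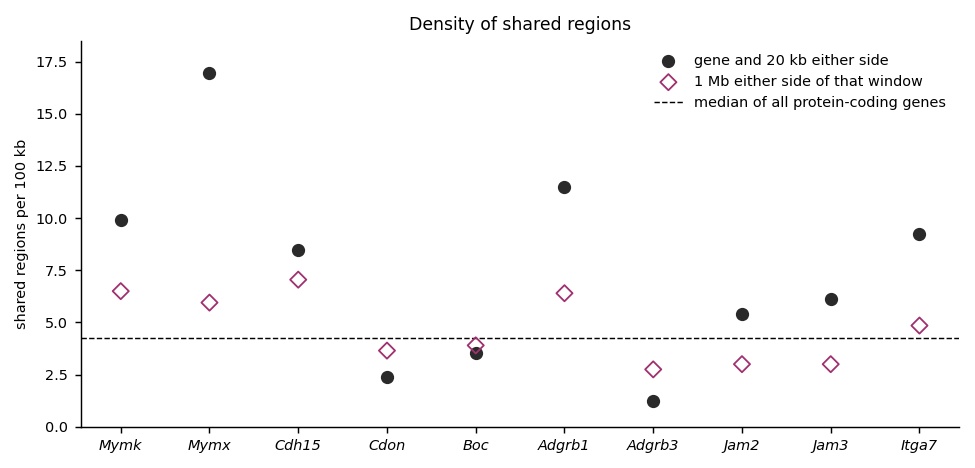
Shared regions per 100 kb in the window of each gene (filled circles) and in the 1 Mb on either side of that window (diamonds), with the median of all protein-coding genes as a dashed line. Cdon, Boc and Adgrb3 lie below the dashed line and below their surroundings, and the other 7 genes lie above both. Surroundings were not counted for all protein-coding genes.

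The surroundings varied as well. In the 1 Mb on either side of the windows the density ran from 2.75 per 100 kb around Adgrb3 to 7.05 around Cdh15. The window was denser than its surroundings at 7 of the 10 genes. How many of all protein-coding genes meet this rule was not counted, so it is not shown to be particular to these. The median window of all protein-coding genes held 4.27 per 100 kb, against 3.57 over the chromosomes. The widest gap was at Mymx (17.0 against 5.95), and the narrowest among these 7 at Cdh15 (8.47 against 7.05).

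The fusion proteins come first. Mymk encodes myomaker, a multipass membrane protein needed on both fusing cells, and spans 10526 bp of chromosome 2 (27061636 to 27072161). Its strongest shared region, from 27070381 to 27072177, covered the upper-coordinate end of the gene, with folds of 38.6 and 32.1 and place 8974. The next, from 27059384 to 27061108, ended 527 bp below the lower end, with folds of 16.5 and 19.6. A weaker one lay 10572 bp below the gene (9.18-fold and 9.27-fold). The remaining pair lay inside the neighbouring gene Adamtsl2, which encodes a secreted matrix glycoprotein, at 5.88-fold and 3.25-fold and at 5.90-fold and 4.56-fold. Within Mymk, replicate 2 also had a peak of 13.5-fold without a partner, 782 bp from the strongest region.

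Mymx encodes myomixer, a short membrane peptide that acts after myomaker in opening the fusion pore. The gene spans 1236 bp of chromosome 17 (45600961 to 45602196), shorter than all but 8.81% of protein-coding genes. Its lower end was covered by a shared region (45599720 to 45601659) that reached 88.5-fold and 72.9-fold. It took place 174 of 97115 and was the strongest region at any of the 10 genes in both lists. A second strong region began 638 bp above the gene, from 45602835 to 45604321 (27.5-fold and 42.9-fold, place 10081). The other lay 9956 bp below it, from 45588252 to 45591004 (54.0-fold and 29.3-fold, place 7939). That one lies inside Slc29a1, the gene of a nucleoside transporter, which ends 1342 bp below Mymx. In all, 5 of the 7 shared regions in the window of Mymx overlapped Slc29a1, and 4 of those 5 had folds of 3.67 to 11.1 in either list. The last 17875 bp of the upper flank held no peak of either list. At Mymx 9 of 10 peaks of replicate 1 and 8 of 8 of replicate 2 had a partner.

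The cadherin gene Cdh15 encodes M-cadherin, a calcium-dependent adhesion protein of muscle cells. On chromosome 8 (122848374 to 122867397) it held a pair of shared regions. The first, from 122847574 to 122848390, reached across the start of the gene. The peaks behind its folds of 26.8 and 23.2 ended short of the start, at 122847954 and 122848294. Only a separate 6.30-fold peak of replicate 1 crossed it. The second, from 122851439 to 122852052, had folds of 17.6 and 20.7. The strongest of the window lay outside the gene, 17861 bp above it, from 122885259 to 122886605 (44.4-fold and 31.2-fold, place 8259), inside Ankrd11, which encodes a chromatin regulator, and the non-coding RNA gene Gm39273. From 122852735 to 122878798, a stretch of 26064 bp that takes in most of the gene and its upper end, neither list had a peak.

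The promoter table of RefSeq (GRCm38.p6, the assembly behind mm10) holds 300 bases, from 250 before to 50 after a transcription start, for 3 of the 10 genes. They are shown because the promoter table holds no other of the 10 genes. A shared region reached the promoter of Cdh15 alone. At Cdh15 the region at the gene's start covered 267 of the 300 bases. At Cdon, for a start that lies 30548 bp inside the gene span, the nearest shared region was 3090 bp away. At Adgrb3, whose listed start lies 5065 bp inside the upper end, it was 20456 bp away. Of 21263 such promoters of protein-coding genes, 9.92% overlapped a shared region. Capitals mark the E-box letters CANNTG, where N is any base. A match to this pattern on either strand is a match on the other as well. Sequences run 5′ to 3′ on the strand of the gene.
Cdh15, chr8:122848124-122848423, plus strand: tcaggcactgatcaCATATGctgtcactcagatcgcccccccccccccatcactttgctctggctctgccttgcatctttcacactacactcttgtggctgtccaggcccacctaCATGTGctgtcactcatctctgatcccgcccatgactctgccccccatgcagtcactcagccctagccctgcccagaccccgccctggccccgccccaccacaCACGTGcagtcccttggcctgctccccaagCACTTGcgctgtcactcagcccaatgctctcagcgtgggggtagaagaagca
Cdon, chr9:35451826-35452125, plus strand: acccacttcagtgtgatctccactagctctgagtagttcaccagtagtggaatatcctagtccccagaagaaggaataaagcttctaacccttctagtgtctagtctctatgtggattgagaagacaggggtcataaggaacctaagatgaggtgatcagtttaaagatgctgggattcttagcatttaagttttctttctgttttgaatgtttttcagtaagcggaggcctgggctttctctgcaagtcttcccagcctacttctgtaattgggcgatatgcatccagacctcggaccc
Adgrb3, chr1:25829658-25829957, minus strand: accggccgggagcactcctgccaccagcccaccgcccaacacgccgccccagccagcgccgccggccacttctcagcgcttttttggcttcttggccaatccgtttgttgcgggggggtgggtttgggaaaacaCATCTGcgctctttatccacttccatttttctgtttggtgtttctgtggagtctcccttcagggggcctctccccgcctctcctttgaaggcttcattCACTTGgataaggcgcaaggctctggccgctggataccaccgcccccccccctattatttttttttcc

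The Cdh15 promoter held 4 such E-box words, that of Adgrb3 held 2, and that of Cdon held 0. At least 1 CANNTG was present in 69.0% of the 21263 promoters, with a median of 1. CAGCTG, a form of the word counted within CANNTG, was in none of these 3 promoters and in 15.6% of all. A match of letters is not a measured binding site.

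Cdon and Boc encode related immunoglobulin-type receptors that associate with cadherins at myoblast contacts and also act as Hedgehog co-receptors. Per 100 kb of window, Cdon (2.38) and Boc (3.51) had fewer shared regions than the median of all protein-coding genes (4.27). Their densities exceeded those of 27.8% and 40.8% of protein-coding genes. Each had a very strong region in its interior. Cdon (chromosome 9, 35421528 to 35507652) had a region (35471097 to 35472879) of 51.1-fold and 64.9-fold at place 2271. A second, from 35455166 to 35455858, had folds of 22.8 and 27.8. The remaining region of its window lay in the neighbouring gene Gm1113 (10.3-fold and 11.4-fold). Replicate 2 had 7 peaks without a partner here and replicate 1 had 2, so that only 3 of 10 peaks of replicate 2 were partnered. The strongest of these unpartnered peaks reached 13.0-fold.

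Boc (chromosome 16, 44485045 to 44558870) held the widest shared region at any of the 10 genes, 3137 bp from 44545716 to 44548852. Its folds were nearly equal in both lists, 45.1 and 45.0, and its place was 3790. Another region inside Boc, also overlapping the non-coding RNA gene Gm30064, had 5.73-fold and 13.8-fold. The 2 regions above the gene had 5.51-fold and 13.0-fold, and 4.31-fold and 4.94-fold. A peak of 35.8-fold in replicate 2 (44530762 to 44532364), inside Boc and Gm30064, had no partner in replicate 1. It was the strongest unpartnered peak at any of these genes, in the 94.1 percentile of its list.

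Adgrb1 and Adgrb3 encode adhesion G protein-coupled receptors of the BAI family, which signal through ELMO and DOCK proteins to Rac during fusion. They were the furthest apart of the related genes. Adgrb1 (chromosome 15, 74516196 to 74589465) held 10 shared regions inside its 73270 bp, or 13.6 per 100 kb of gene. Adgrb3 (chromosome 1, 25067476 to 25834772) also held 10, inside 767297 bp, or 1.30 per 100 kb. Adgrb3 was longer than 99.5% of protein-coding genes.

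At Adgrb1 the regions gathered toward the upper-coordinate end. The strongest, from 74584678 to 74586171, reached 67.9-fold and 42.7-fold (place 3055). Beside it lay regions from 74580654 to 74581929 (39.3-fold and 29.3-fold) and from 74586300 to 74586960 (26.1-fold and 30.3-fold). The last of these fell just under the mean percentile of 90 that defines a strong region. The other strong regions lay in the interior, from 74560138 to 74561767 (36.0-fold and 30.6-fold), and 15698 bp below the gene, from 74498229 to 74500497 (29.4-fold and 30.9-fold). The lists placed the summits of that last region 1288 bp apart, the largest distance among the 17 strong regions, whose median was 54 bp. One region, from 74527455 to 74528170, had 29.8-fold in replicate 1 and 5.25-fold in replicate 2, so its strength was not the same in the lists. The longest stretch without a peak of either list, 17130 bp from 74510325 to 74527454, took in the lower end of the gene.

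At Adgrb3 the strongest region, from 25366617 to 25367403, had folds of 60.2 and 59.3 and place 1728, the second best at these genes after Mymx. It was 787 bp wide, and the summits of the lists lay 4 bp apart. Regions from 25137096 to 25138604 (39.3-fold and 57.4-fold) and from 25179774 to 25181118 (31.5-fold and 39.2-fold) were also strong. The remaining 7 regions had folds of 5.88 to 18.2 in replicate 1 and 6.49 to 31.5 in replicate 2. All 10 lay within the gene, and the flanks held none. Of the 26 peaks of each list in this window, 12 in replicate 1 and 10 in replicate 2 had a partner. A 27.5-fold peak of replicate 1 without a partner began 71 bp past the region from 25808690 to 25809251, and a 25.0-fold peak of replicate 2 lay farther away, at 25780857 to 25781219.

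The junctional adhesion molecule genes Jam2 and Jam3 encode immunoglobulin-type proteins that bind each other across cell contacts. Jam2 (chromosome 16, 84774123 to 84826380) had its strongest region inside the gene, from 84782000 to 84783052, at 24.2-fold and 42.3-fold (place 12266). Another inside it had folds of 8.60 and 19.5. The pair of regions above the gene overlapped Atp5j, a gene of mitochondrial ATP synthase, and Gabpa, a transcription factor gene (8.45-fold and 8.03-fold, 19.1-fold and 5.87-fold). The lower end of Jam2 was covered by a peak of replicate 2 alone (16.7-fold).

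Jam3 (chromosome 9, 27097384 to 27155421) held 5 regions, at both ends and in the interior. Near the lower end a region from 27097571 to 27099202 had folds of 40.1 and 40.2 and place 6102, followed by a region from 27099361 to 27101010 (15.1-fold and 30.9-fold). In the interior, 27119883 to 27121599 had folds of 47.6 and 24.2. Toward the upper end lay regions of 23.9-fold and 7.72-fold and of 9.18-fold and 9.27-fold, the last of which covered the end itself. Jam3 thus had a pair of strong regions where Jam2 had 1.

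Itga7 encodes the integrin alpha-7 subunit, which pairs with beta-1 as a receptor for laminin in the basement membrane. It was the exception among these genes. No peak of either list overlapped its 24866 bp (chromosome 10, 128933421 to 128958286), and the stretch without a peak ran over 30906 bp. Of protein-coding genes of 20 to 30 kb, 13.3% likewise had no peak of either list inside them, as did 28.1% of protein-coding genes of any length. All 6 shared regions lay in the flanks. The strongest was 17329 bp above the gene, from 128975616 to 128976896, in the non-coding RNA gene 9030616G12Rik (25.2-fold and 17.2-fold, place 22443). Others overlapped the neighbouring genes Mettl7b (21.4-fold and 15.2-fold), Bloc1s1 (19.7-fold and 10.5-fold) and Rdh5 (16.9-fold and 22.2-fold). The best region of Itga7 was the weakest best region of the 10 genes.

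**Figure D3:**
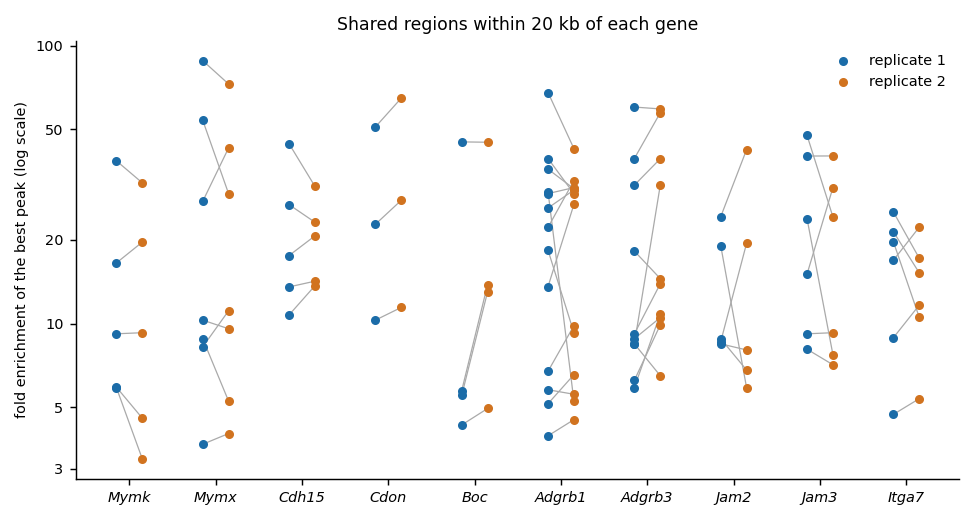
Fold enrichment (log scale) of the best peak of each shared region in replicate 1 (blue) and replicate 2 (orange), joined by a line for each region, for the 10 genes. The Mymx region at 88.5-fold and 72.9-fold stands highest, and no region of Itga7 exceeds 25.2-fold.

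By the mean percentile of the best region, the order was Mymx (99.8), Adgrb3 (98.7), Cdon (98.3), Adgrb1 (97.7), Boc (97.2), Jam3 (95.5), Cdh15 (93.8), Mymk (93.3), Jam2 (90.9) and Itga7 (83.7). By the strongest peak of a single list, Mymx was first in both, and the last was Jam2 in replicate 1 and Itga7 in replicate 2. The percentiles of a shared region differed between the lists by a median of 7.78 points over the 64 regions and 9.99 points over all regions. Those medians are over regions of all strengths, so they do not measure how firm an order among the strongest regions is. By the strongest peak of a single list, Adgrb1 was number 2 in replicate 1 and number 5 in replicate 2. Cdon was number 4 in replicate 1 and number 2 in replicate 2. The order below Mymx thus depended in part on the list.

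A shared region covered an end of the gene at Mymk, Mymx, Cdh15 and Jam3, 4 of 10, against 11.3% of protein-coding genes. Only at Mymx and Jam3 did a peak of each list cover the end base, a rule met by 6.89% of protein-coding genes. At Mymk and Cdh15 only a peak of replicate 1 reached it. At Cdh15 the covering peak had 6.30-fold, and the nearest peak of replicate 2 stopped 80 bp short of the start.

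**Figure D4:**
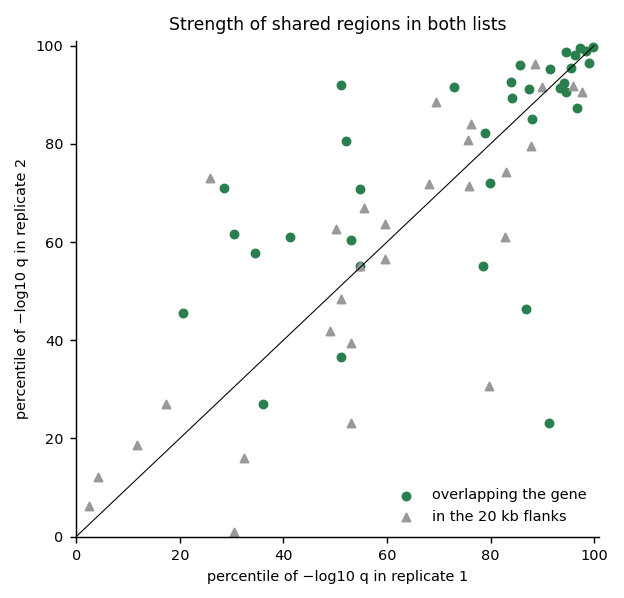
Percentile of −log10 q of the 64 shared regions in replicate 1 (x axis) and replicate 2 (y axis), as circles where the region overlaps the gene and triangles where it lies in the 20 kb flanks. The line marks equal percentiles. Of the 17 regions with a mean percentile of at least 90, which the choice puts at the upper right, 13 overlap the gene. The percentiles of a region differ by up to 68.3 points.

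Over all peaks, agreement of the lists at these genes was close to that elsewhere. In replicate 1, 72 of 105 peaks (68.6%, 95% exact binomial interval 58.8 to 77.3%) had a partner, against 67.2% of its whole list. In replicate 2, 68 of 117 (58.1%, interval 48.6 to 67.2%) did, against 57.8%. Peaks of the same strength, by steps of 10% of −log10 q, were partnered at 70.0% and 59.3% over the whole lists. The intervals cover counting error only and treat peaks as independent. The peaks fall at 10 genes whose shares differ, in replicate 1 from 46.2% at Adgrb3 to 100% at Jam2. The intervals may therefore be too narrow. Among peaks of at least 5-fold, 71.4% of both lists together had a partner at these genes, against 64.1% over the whole lists. In the gene spans alone the share was 56.5%, against 62.2% of all peaks. Partnered peaks at these genes had a median fold of 13.2 and 13.8, and unpartnered ones 5.88 and 5.25. Of 33 and 49 unpartnered peaks, 1 in replicate 1 and 2 in replicate 2 reached 20-fold, and all 3 are the peaks of Boc and Adgrb3 given above. These medians and counts were not set beside those of the whole lists, so they describe the windows of these genes and no difference from other genes.

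**Figure D5:**
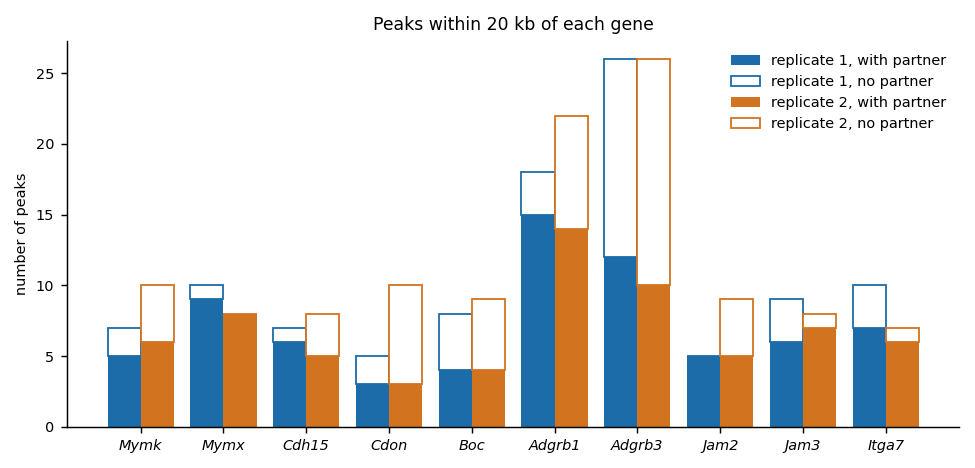
Number of peaks within 20 kb of each gene in replicate 1 (blue) and replicate 2 (orange), filled for peaks with a partner in the other list and open for those without. At Mymx 17 of 18 peaks are partnered, whereas at Adgrb3 open parts exceed filled parts in both lists.

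A further 46 genes of fusion and adhesion gave a wider view: 21 adhesion molecules, 17 cytoskeletal and signalling genes and 8 membrane genes. All 46 had a shared region in the window, again beside 89.6% of protein-coding genes. Their median density was 4.22 per 100 kb, near the 4.27 of all genes. A strong region lay in the window of 29 of the 46 (63.0%, against 36.0% of protein-coding genes), namely of 13 adhesion molecules, 12 signalling genes and 4 membrane genes. These genes too were long, with a median span of 67.0 kb against 17.2 kb. The strongest belonged to Elmo2, a partner of the BAI receptors (91.8-fold and 68.7-fold, place 175), and to Dock1, the Rac activator that binds ELMO (74.9-fold and 63.3-fold, place 538). They were followed by Stab2, a phosphatidylserine receptor gene (64.3-fold and 44.0-fold), and Anxa5, the gene of the phosphatidylserine-binding annexin A5 (68.7-fold and 55.0-fold). The region of Dock1 lay in its flank and the other 3 overlapped the gene. Densities among the 46 ran from 1.36 at Cd36 to 13.8 at Itga3, another integrin alpha-chain gene. A shared region covered an end at 7 of the 46 (15.2%), close to the 11.3% of all protein-coding genes.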

How the data were processed

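The deposited peak lists of replicates 1 and 2, in narrowPeak layout without headers, hold the authors' fold ratio at the summit, −log10 p, −log10 q, a score and the summit position of each peak. The score, which follows −log10 q, and −log10 p were not used. Per the submitters' processing notes, the build was mm10 and the tools were MACS2 2.1.1, Picard 2.9.2 and Bowtie2 2.3.2. How controls, pooling and thresholds were set for the calls is not given in the sources used here. Read depth is unknown. The lowest deposited −log10 q was 1.345 and 1.324.

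Peaks overlapping by at least 1 bp were joined into shared regions, and genes came from a RefSeq table of GRCm38.p6. A strong region has a mean percentile of at least 90. The code was tested on simulated data with planted overlaps. The genes and lists were chosen with earlier results of these data known. Each gene's best and strong regions, the 4 leading genes of the wider list and genes overlapping those regions follow a fixed rule, and other regions, unpartnered peaks and neighbours were named after their values were seen. The gene table has no strand or exons, so gene ends replaced transcription starts, and E-box letters were counted in promoters alone. Alternatives were thresholds of −log10 q and fold, the 10000 strongest peaks, stricter overlap, other windows and either list alone. Calculations used scipy 1.17.1, pandas 2.3.3 and numpy 2.4.6 in Python 3.11.15, with figures by matplotlib 3.10.9.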

Additional observations from a re-analysis of the deposited data

How the results depend on the processing

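The presence of a shared region at all 10 genes held at a minimum −log10 q of 5, at a minimum fold of 5, under both stricter overlap rules, windows of 5 and 50 kb and either list alone, rules that 70.3% to 97.7% of protein-coding genes also met. In the gene span alone 9 of 10 had one, beside 56.4% of protein-coding genes. Among the 10000 strongest peaks of each list 6 of the 10 kept a region (20.6% of protein-coding genes), with 7 regions in all, a median density of 0.520 per 100 kb, 1 gene with a covered end (1.80% of protein-coding genes), and 14 of the 46 other genes with a region. The 64 regions became 35 in the gene span alone, 42 with 5 kb and 108 with 50 kb either side, and the lists alone held 105 to 117 peaks. The median density was 7.02 with −log10 q of at least 5, 6.03 with fold of at least 5, 6.14 with a reciprocal overlap of 50%, 6.67 with summits within 200 bp, 6.22 in the gene span, 5.85 and 6.57 with 5 and 50 kb, and 10.3 to 10.5 for the peaks of either list alone. It stayed above the median of all protein-coding genes in each of these settings. Genes with a covered end numbered 2 with summits within 200 bp (7.98% of protein-coding genes) and 2 when a peak of each list had to cover the end base (6.89%), a rule added after the data were seen. Of the peaks of both lists at these genes 63.1% had a partner, against 62.2% of all peaks. This became 71.4% (all peaks 64.1%) with fold of at least 5, 39.6% (39.0%) with reciprocal overlap and 50.5% (45.7%) with summits within 200 bp. With −log10 q of at least 5 the share was 64.4% (62.9%), and with 50 kb either side 63.0% (62.2%). It was below that of all peaks in the gene span alone, 56.5% (62.2%), and with 5 kb either side, 59.9% (62.2%). Among the 10000 strongest peaks it was also lower, 63.6% (65.4%). No paired analysis was possible because the lists of the replicates come from the same condition and no groups were tested against each other. Without read depth, absence of a peak, as inside Itga7, cannot be told from signal too weak to be called.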
